A study of Rattus norvegicus with 6 samples.

Results

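Map2 and Dlg4, a pair of genes best known from neurons, each had 1 probe on an array built for piRNAs and were read here in rat testis. Map2 and Dlg4 are 2 of the 38 genes with an assigned probe on the array, and their 2 probes are among 39886 probes apart from controls. The probes are A_44_P111897, named by the Map2 mRNA NM_013066, and A_44_P238314, named by the Dlg4 mRNA NM_019621. No other probe carried an mRNA accession of either gene. The pair was picked with earlier results of the same arrays known, so the DEHP against control values below are a description and carry no test. All animals were male Sprague-Dawley rats, 11 weeks old at collection per the labels. The 3 control rats received corn oil, and the 3 DEHP rats received di(2-ethylhexyl) phthalate, a plasticizer, at 1000 mg/kg/day in corn oil, both by gavage for 28 days. RNA of 1 testis of each rat was labelled with Cy3 and hybridised to 1 one-colour array. Directions follow the sample labels, because the series' design text lists corn oil and DEHP in swapped order. The study asks how DEHP bears on piRNA signals in testis, with a single dose and a single time.

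Map2 encodes microtubule-associated protein 2, which binds along microtubules, stabilises and spaces them, and is the classic marker of neuronal dendrites. It has also been described in rat testis. Dlg4 encodes PSD-95, a scaffold protein of the postsynaptic density. PSD-95 has PDZ, SH3 and guanylate kinase-like domains, and holds NMDA-type glutamate receptors and potassium channels at excitatory synapses. The testis contains nerve fibres beside its germ, Sertoli, Leydig, peritubular and vascular cells. An array of whole testis does not say which of these cells a signal comes from, and fewer cells of a type cannot be told apart from less RNA per cell.

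Sequence windows at a start taken for each gene from RefSeq, build GRCr8, are shown to place both genes in the genome. Neither gene's probe sequence was used here. Each window runs 5′ to 3′ on the + strand, with 250 bases before the start in lower case and the 50 bases from the start in capitals. The Map2 window is chr9:75346440-75346739 and the Dlg4 window is chr10:55239534-55239833.
Map2: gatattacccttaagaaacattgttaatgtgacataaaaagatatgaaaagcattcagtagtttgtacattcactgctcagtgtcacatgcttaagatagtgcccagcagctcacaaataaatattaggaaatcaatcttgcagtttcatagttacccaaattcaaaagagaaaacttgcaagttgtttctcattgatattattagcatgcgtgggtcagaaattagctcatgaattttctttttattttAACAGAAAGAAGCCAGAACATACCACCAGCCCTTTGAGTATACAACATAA
Dlg4: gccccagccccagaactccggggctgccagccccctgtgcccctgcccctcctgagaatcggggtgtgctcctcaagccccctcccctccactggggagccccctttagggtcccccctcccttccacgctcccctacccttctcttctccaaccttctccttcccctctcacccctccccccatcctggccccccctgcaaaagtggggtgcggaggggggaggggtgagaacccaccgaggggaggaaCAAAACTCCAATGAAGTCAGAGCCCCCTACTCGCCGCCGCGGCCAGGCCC
The start taken for Map2 lies 173652 bases inside the span of the gene, while that of Dlg4 lies 387 bases inside. The Map2 window is thus not at the start of the gene span and need not be the promoter used in testis. G and C made up 33.3% of the Map2 window and 68.7% of the Dlg4 window, against a median of 51.7% over 33469 rat windows of the same length. On either strand, the GC box letters GGGCGG (in 33.1% of all windows), the TATA box letters TATAAA (14.2%) and the single nuclear receptor hexamer AGGTCA (16.2%) were found in neither window. Of the CCAAT box letters CCAAT (37.5%) there was 1 match for Dlg4 and 0 for Map2, and of the E-box letters CANNTG (72.1%) 1 for Map2 and 0 for Dlg4. These matches describe the letters only, and no array value bears on them.

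The Map2 probe gave a clear signal in every testis. Its geometric mean signal over the spots of the array was 458, 419 and 396 in controls 1, 2 and 3, and 536, 554 and 549 in DEHP rats 1, 2 and 3, in scanner units after background subtraction. All 3 DEHP values lay above all 3 control values, an order that 24.7% of the 23090 probes kept also showed. The DEHP values spanned 0.05 log2 units against 0.21 in controls. On the log2 scale the control mean was 8.73 ± 0.11 and the DEHP mean 9.09 ± 0.02 (SD, n = 3), a ratio of 1.29. All 10 spots were well above background on each of the 6 arrays, by the scanner software's own flag.

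The Dlg4 probe was dim. Its geometric mean signal was 18.0, 24.0 and 21.6 in controls 1, 2 and 3, and 29.0, 28.0 and 26.9 in DEHP rats 1, 2 and 3. Again the 3 DEHP values lay above the 3 control values. The log2 means were 4.40 ± 0.21 and 4.81 ± 0.05 (SD, n = 3), a ratio of 1.33. All 10 spots were well above background on 5 arrays, but only 2 of 10 on the array of control 1, and 1 of those 2 was flagged as an outlier. Dlg4 was thus measured on 2 of 3 control arrays and on all 3 DEHP arrays, and the value of control 1 is that of a probe not well above background. The median intensity of its spots was 48.3 to 63.0 units per array over a local background of 15.0 to 19.0, where Map2 had 429 to 604 over 16.0 to 20.0. Negative control spots had median processed signals of 2.81 to 4.52 per array.

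These signals are not yet scaled between arrays. A probe was kept if 3 or more arrays detected it above background. Of the 56 kept mRNA probes, 73.2% also had every DEHP array above every control array before scaling, so the pair shared this order with most mRNA probes. The median difference without scaling was 0.31 over all kept probes and 0.69 over mRNA probes, against 0.37 for Map2 and 0.41 for Dlg4.

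**Figure D1:**
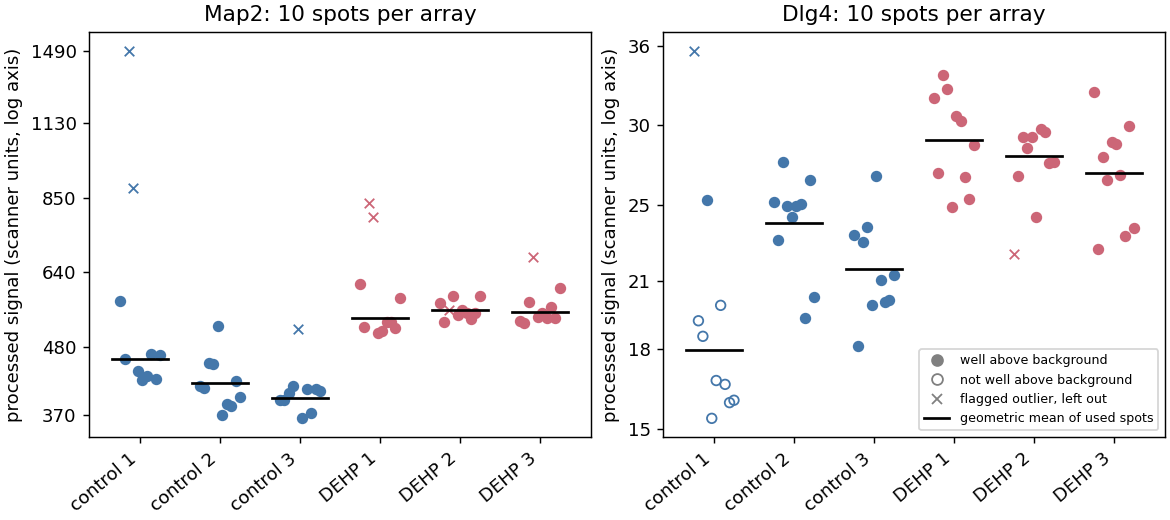
Processed signal of each of the 10 spots of the Map2 and Dlg4 probes on each array, before scaling between arrays (log axis). Bars are the geometric mean of the spots used; open circles are spots not well above background and crosses are spots flagged as outliers. Map2 bars sit at 396 to 458 in controls and 536 to 554 in DEHP testis, and most Dlg4 spots of control 1 are open.

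The replicate spots of each probe show how far a single array can be trusted. Each of the 10 spots lies at a different place on the array, at the same place on all 6. Of the Map2 spots, 7 over all arrays were flagged as outliers and left out. Those at row 104, column 28 and at row 128, column 48 were flagged on 3 arrays each. The first read 1490 on control 1 and 833 on DEHP 1, but 403 on control 3. With the outliers left out, the used Map2 spots of control 1 ran from 423 to 572. The SD of the used spots was 0.05 to 0.15 log2 units per array for Map2 and 0.09 to 0.23 for the dimmer Dlg4, largest on control 1 for Dlg4. Median SDs over probes with replicate spots were 0.07 to 0.10.

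By group, the spot SD of Map2 was 0.12 ± 0.05 on control and 0.07 ± 0.02 on DEHP arrays (SD over arrays, n = 3). That of Dlg4 was 0.18 ± 0.04 and 0.14 ± 0.04. These SDs come from the same spot signals that chose the pair and are given with no test. The local background, read outside the spots and not named in the choice, was compared between groups, with p-values adjusted over the 2 probes. It is not independent of the choice, which used background-subtracted signals and a flag set against background. The log2 local background beside the Map2 spots was 4.18 ± 0.15 in controls and 3.99 ± 0.02 in DEHP testis. All 3 DEHP arrays lay below all 3 control arrays (n = 3, two-sided exact permutation p = 0.1, adjusted p = 0.2). Beside the Dlg4 spots the background was 4.08 ± 0.16 and 3.96 ± 0.04 (n = 3, exact permutation p = 0.4, adjusted p = 0.4). With 3 arrays against 3 no p under 0.1 can be reached, so these tests cannot pass a threshold of 0.05. The part of the local background in the Dlg4 values was not tested.

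The groups were no longer apart after scaling. Each array was centred by subtracting the 75th percentile of its log2 signals, which was 5.74, 6.37 and 5.89 in controls 1, 2 and 3 and 6.14 to 6.38 in DEHP arrays. After centring, Map2 stood at 3.10, 2.34 and 2.74 in controls 1, 2 and 3 and at 2.93, 2.73 and 2.87 in DEHP rats 1, 2 and 3. The DEHP values now lay inside the control range, control 1 being the highest of the 6 and control 2 the lowest. Control means were 2.73 ± 0.38 and DEHP means 2.84 ± 0.10 (SD, n = 3), a difference of 0.11 with a standard error of 0.19 from limma's fit across all probes. The range of the controls, 0.21 before centring, was 0.76 after it.

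Dlg4 after centring stood at -1.57, -1.78 and -1.45 in controls 1, 2 and 3 and at -1.28, -1.57 and -1.49 in DEHP rats 1, 2 and 3. The groups overlapped, with control 3 above DEHP 2 and DEHP 3. The means were -1.60 ± 0.17 and -1.45 ± 0.15 (SD, n = 3), a difference of 0.16 with a standard error of 0.17. When the percentile came from those probes alone that all 6 arrays detected, the Dlg4 groups did not overlap, with controls at -3.44 to -3.27 and DEHP testis at -3.14 to -2.92. That scaling gave Dlg4 a difference of 0.29, against medians of 0.19 over all kept probes and 0.57 over mRNA probes. How many probes showed this order under that scaling was not counted, and control 1 did not detect Dlg4. In the setting used here, the difference of both genes was smaller than its standard error. In the fit across all probes, 10.7% of probes were called at an adjusted p under 0.05 and neither member was; nothing is read from this, since the pair was chosen on the same contrast.

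**Figure D2:**
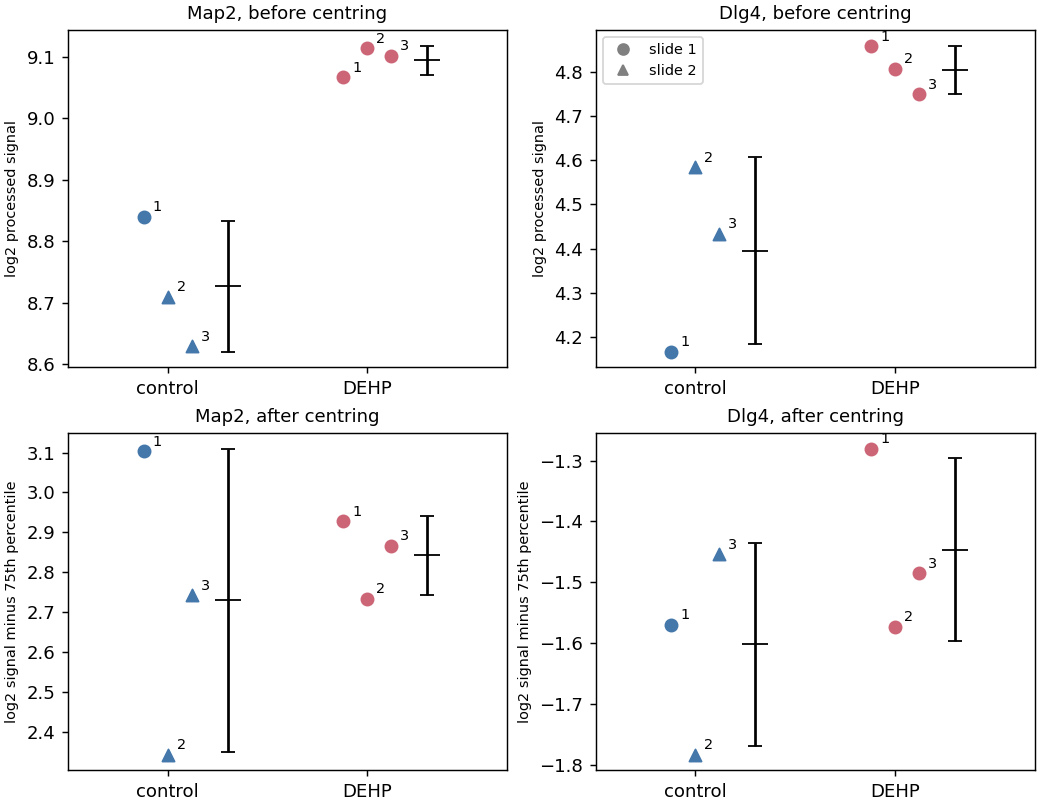
Log2 signal of Map2 and Dlg4 by array before centring (top) and after subtraction of each array's 75th percentile (bottom). Points are arrays with their replicate number, circles on slide 1 and triangles on slide 2, with slides inferred from scan identifiers. Bars are mean ± SD (n = 3), and the axes do not start at 0. The groups are apart in the top row and overlap in the bottom row.

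Position by position on the array, 8 of the 10 Map2 spots had a higher centred mean in DEHP testis, with outlier spots included. The median difference over positions was 0.08 and the range -0.27 to 0.22, the lowest at the position that read 1490 on control 1. For Dlg4 it was also 8 of 10, with a median of 0.15 and a range of -0.21 to 0.25. At 0 Map2 positions and 1 Dlg4 position did all 3 DEHP values exceed all 3 control values. Spots of an array share its RNA and its scaling and are not replicates of the treatment.

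The Map2 difference changed with the slide and with control 1, and these cannot be told apart. The slide was read from a scan identifier in each file header, which no label states. Arrays with the same identifier were taken to share a slide, and neither header nor label names the slide itself. On that reading control 1 lies beside the 3 DEHP arrays, and controls 2 and 3 lie together on another slide. Control 1 also detected fewer probes, 42.1%, against 53.6 to 59.8% on the other arrays. It had the lowest 75th percentile (5.74) and the highest negative control median (4.52). On the shared slide, Map2 differed by -0.26 between DEHP testis and a control value of 3.10, with each DEHP array below that control. Controls 2 and 3 lay 0.56 below control 1 on average. With the slide as a block the Map2 difference was -0.26 with a standard error of 0.22; that fit takes the difference from slide 1 alone, since slide 2 holds only controls. Dlg4 on the shared slide differed by 0.12, with DEHP 2 just below control 1, which is also the value with the slide as a block. Since the lone control of that slide is the array on which Dlg4 was not well above background, the within-slide value of Dlg4 rests on a signal at the limit of detection. Without control 2 the Map2 difference was -0.08, and without control 1 it was 0.30. For Dlg4 it was 0.07 without control 2, 0.07 without DEHP 1 and 0.23 without control 3.

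Most mRNA probes on the array had larger differences than Map2 and Dlg4. Of 56 kept mRNA probes, 45 had a positive difference, with a median of 0.44, and 24 (42.9%) were called higher and 2 lower; over all kept probes the median was 0.05, with 4.44% called higher. With the slide as a block, 0 mRNA probes were called higher (limma, 19 at an unadjusted p under 0.05), and of all probes 7 were called in either direction where 2471 were without the block. Without control 1 or control 2 the mRNA probes called higher numbered 25 and 26. Without control 3, DEHP 1, DEHP 2 or DEHP 3 they numbered 1, 1, 0 and 11. In these last 4 settings 27, 28, 30 and 31 were higher at an unadjusted p under 0.05 by limma, against 35 with all arrays. Of the mRNA probes, 42 had a larger difference than Map2 and 41 a larger one than Dlg4, and 35 (62.5%) had every DEHP array above every control array after centring, against 20.6% of all kept probes. The pair thus lay in the lower part of the mRNA probes and close to the median of all probes. When arrays were instead centred on the median of the mRNA probes detected on all 6 arrays, a setting added after the data were seen, Map2 differed by -0.35 and Dlg4 by -0.31. These negative values follow from the place of the pair below the median of the mRNA probes and are no separate evidence. The sign of both members thus depends on what they are measured against. Differences also moved with signal level over all kept probes. In the tenth of probes by mean signal that holds Dlg4 the median was 0.23, and in the tenth that holds Map2 it was -0.13.

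**Figure D3:**
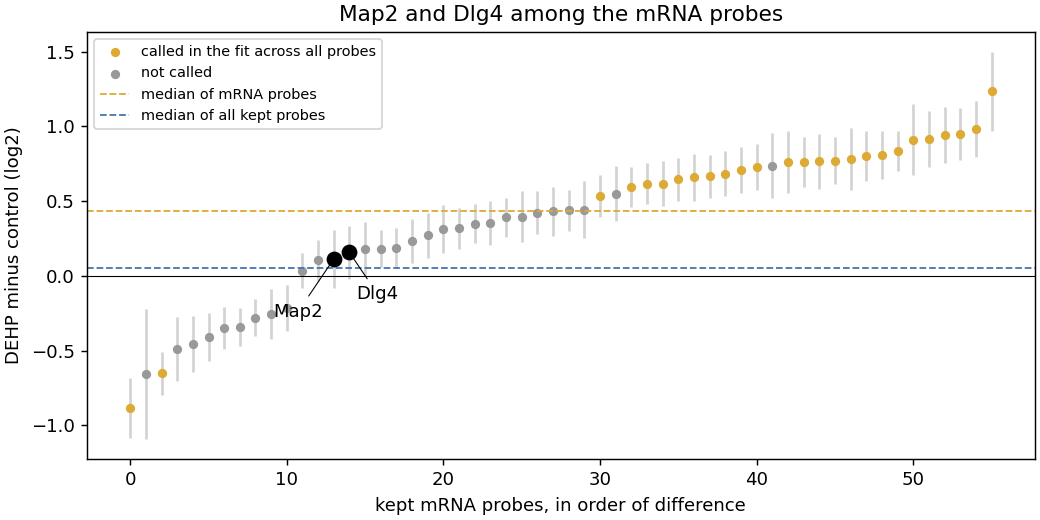
Difference between DEHP and control testis (log2, centred on the 75th percentile) of the 56 kept mRNA probes, in order; error bars are limma's standard errors. Map2 (0.11) and Dlg4 (0.16) lie below the median of the mRNA probes (0.44) and near that of all kept probes (0.05).

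The array allows little comparison with other neuronal genes. Of a list of 46 neuronal or synaptic genes, 3 have a probe here, namely Map2, Dlg4 and Cdh2, and of 13 microtubule-associated genes only Map2 does. Cdh2 encodes N-cadherin, an adhesion molecule of synapses that also joins Sertoli and germ cells. Its signal passed the background flag on 3 DEHP and 0 control arrays. Its centred signal averaged -2.55 ± 0.16 over control arrays and -1.32 ± 0.47 over DEHP arrays (SD, n = 3). With each control value raised to the lowest signal of any probe detected on its array, the ratio was 1.56-fold. An undetected probe can lie above that lowest signal, so this is not a strict bound. It also averages over controls of both slides. Cdh2 entered the fit only through the DEHP arrays, where it was high, so no test of it is given. Of 40 marker genes of testicular and nerve cell types, only Lhcgr, the luteinizing hormone receptor of Leydig cells, has a probe. Lhcgr was well above background on all 6 arrays, at -0.67 ± 0.34 for controls and -0.12 ± 0.20 for DEHP (SD, n = 3, limma, adjusted p = 0.0784). No nerve or Schwann cell marker could be set beside the pair. Of 8 reference genes 5 have probes, but those of Hprt1 were detected on no array and left out. The 11 kept probes are of Actb, B2m, Gapdh and Gusb, with a median difference of 0.53. Of these probes 6 were called higher and 1 lower (limma), where 42.9% of all mRNA probes were called higher. Those called higher were of B2m, Gapdh and Actb, though not every Gapdh or Actb probe was called. With the slide as a block, with median centring, and without control 3 or any 1 of the DEHP arrays, 0 reference probes were called higher by limma, with 4 to 7 at an unadjusted p under 0.05. Against the mRNA probes none was called higher, and 0 were higher at an unadjusted p under 0.05 by limma. That centring uses reference probes among others and brings the median mRNA difference to -0.03. Its outcome was thus largely set in advance.

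Other mRNA probes had profiles close to those of the pair. Likeness was taken as the root mean square difference between 2 profiles over the 6 arrays, each centred on its own mean, among 53 other probes with a gene symbol. Closest to Map2 were Ptk2b, a calcium-activated tyrosine kinase of the focal adhesion kinase family, at 0.15, and 1 probe each of the chaperone Hsp90ab1 (0.16), Gapdh (0.16), the cytochrome P450 gene Cyp2e1 (0.17) and Ldha (0.17). The median over all 53 was 0.33. Closest to Dlg4 were 1 probe each of Hsp90ab1 (0.05), the ribosomal protein gene Rpl13a (0.09), the glycolytic kinase gene Pgk1 (0.10) and Ldha (0.12). A second Hsp90ab1 probe followed at 0.13, against a median over all 53 of 0.29. Dlg4 ranked 7 among the probes closest to Map2, and Map2 ranked 11 among those closest to Dlg4, at 0.18. These neighbours were picked for likeness to probes that were not called. None of them was called, and their differences ran from 0.03 to 0.40. The likeness is of single probes, not of genes. Other Ldha probes differed by 0.91, 0.19 and -0.89, other Pgk1 probes by -0.46 and -0.21, and other Gapdh probes by 0.65 and 0.62. The other Rpl13a probes differed by 0.35 each and the remaining Hsp90ab1 probe by 0.44. Profiles of arrays share the scaling of each array, so likeness is a description of these 6 arrays.

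The authors' deposited value table holds values of the 2 probes on the authors' own scale. In it Map2 has 9.30, 8.45 and 8.67 in controls 1, 2 and 3 and 9.21, 8.99 and 9.06 in DEHP rats 1, 2 and 3. Control 1 is again the highest and control 2 the lowest. For Dlg4 the table has 4.68, 4.24 and 4.73 in controls and 4.70, 4.28 and 4.48 in DEHP rats, and the groups overlap. The differences were 0.28 for Map2 and -0.06 for Dlg4. Over the alternative settings the Map2 difference ran from -0.35 to 0.37 and the Dlg4 difference from -0.31 to 0.41.

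**Figure D4:**
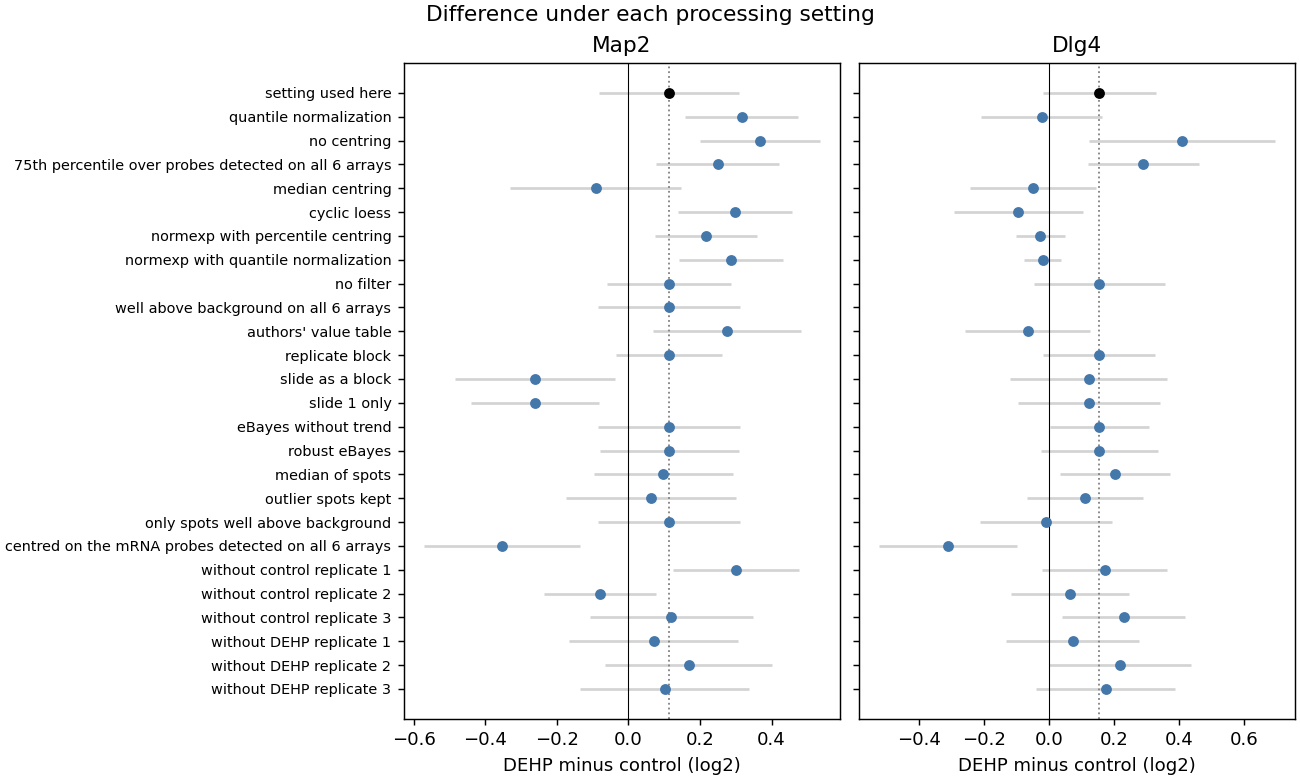
Difference between DEHP and control testis (log2) of Map2 and Dlg4 under each processing setting, with limma's standard error as bars; the dotted line marks the setting used here. Map2 is negative with median centring, by slide, without control 2 and against the mRNA probes, and Dlg4 is negative with quantile normalization, median centring, cyclic loess, both normexp settings, the authors' values, only spots well above background and against the mRNA probes.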

How the data were processed

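Agilent Feature Extraction made the deposited scanner files, per the submitters' processing notes; the file headers give its version as 11.0.1.1. Per the file headers, these files hold intensity values for each spot (background-subtracted signal, median spot and median local background) and other values, namely flags of 0 or 1. The value table deposited by the authors holds 1 log2 value per probe and array, by a method that the sources used here do not state. Groups follow the sample titles, and per the labels each array is a different rat.

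Control and outlier spots were dropped, log2 signals were averaged over spots, and the 75th percentile of each array was subtracted. A probe counted as detected on an array if at least 0.5 of its used spots were flagged well above background. Probes detected on 3 or more arrays (23090 of 39886) were fitted with limma 3.58.1 in R 4.3.3, with an intensity trend and Benjamini-Hochberg adjustment. The code of the fit was also run on simulated data with independent noise. Those data held no slide or array effect, so that run does not bear on such effects. RefSeq's GRCr8 table gave symbols to 61 of 67 mRNA probes by accession. Precision is limited by the number of arrays. No spot was saturated.

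The members, lists and tests were chosen with earlier results of these data known. Named were the members, the 5 closest profiles of each, and listed genes with a probe. Alternatives covered scaling, background correction (normexp, offset 50, on median signals), filters, spot summaries, the authors' table, slide and replicate blocks, and arrays left out. Plots used matplotlib 3.10.9.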

Additional observations from a re-analysis of the deposited data

How the results depend on the processing

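Map2 differed by 0.11 in the setting used and moved by more than the replicate SD of 0.28 with the slide as a block (-0.26), on slide 1 alone (-0.26) and against the mRNA probes (-0.35). Dlg4 differed by 0.16 and moved by more than its replicate SD of 0.16 without centring (0.41), with quantile normalization (-0.022), cyclic loess (-0.094), median centring (-0.050), normexp with percentile centring (-0.026) or quantile normalization (-0.018), the authors' table (-0.064), only spots well above background (-0.0082) and the mRNA probes as reference (-0.31). With only spots well above background, the Dlg4 value of control 1 rests on 1 of its 9 used spots. Map2 was also negative with median centring (-0.092). With each array left out in turn, Map2 ran from -0.080 to 0.30 and Dlg4 from 0.066 to 0.23. Dlg4 has no value under a filter at all 6 arrays, since control 1 did not detect it.

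Of all probes, 2471 were called. The count was 568 without centring, 1598 with normexp and percentile centring, 7 with the slide as a block (limma, 4091 at an unadjusted p under 0.05) and 8895 against the mRNA probes. The block fit takes its differences from a slide with a lone control. Its low counts therefore cannot tell a slide effect apart from lost precision. A fit to slide 1 alone gave the same Map2 and Dlg4 differences but called more probes than the block fit. The low counts thus belong to the block fit and not to slide 1 as such. Of mRNA probes, 24 were called higher, against 5 with median centring, 0 with the slide as a block (limma, 19 at an unadjusted p under 0.05) and 2 against the mRNA probes. Centring on the mRNA probes removes most of their shared difference by construction, so that low count was largely set in advance. With each array left out, the probes called ran from 275 to 4514 and the mRNA probes called higher from 0 to 26. Both lowest counts came without DEHP 2 (limma, 30 mRNA probes at an unadjusted p under 0.05) and the highest without control 2. Without control 3, DEHP 1 and DEHP 3, 544, 478 and 676 probes were called, of which 1, 1 and 11 were mRNA probes called higher. The causes were not tested.

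Same-numbered arrays deviated together at r = 0.13, 0.46 and 0.08 over kept probes, so the numbers were not taken to pair the samples; 4 of the 6 arrays correlated best with the array of their own number in the other group. With the replicate block 4465 probes were called; in this balanced design the block leaves the differences of 0.11 (Map2) and 0.16 (Dlg4) as they are by construction.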
